A study of Rattus norvegicus with 12 samples.

Results

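The lungs of rats that had brain death and then the agonist SEW-2871 (BD/SEW) were compared with the lungs of sham animals. The arrays were chosen by their titles: 3 of the 12 arrays of the series are titled BD/SEW and 3 are titled Control, the sham group. All genes with a probe set that carries 1 gene symbol were described, which gave 14217 genes from 20826 of the 31042 probe sets. Every animal was a male, wild type Sprague Dawley rat of 250 to 350 g. In the BD/SEW group brain death was brought about by inflating a 4 Fr Fogarty catheter outside the dura, and SEW-2871 was injected intravenously at 0.1 mg/kg 15 min later. The BD group had the catheter inflation without the agonist, the SEW group had the agonist at 0.1 mg/kg without brain death, and the sham group is labelled as sham only. Not stated in the labels are whether the SEW animals were operated on, whether any group received a vehicle, how long after brain death the lungs were taken, or which animal each array came from. The p-values therefore measure the spread between these samples, which may be technical in part.

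Brain death is followed by a surge of catecholamines and then by loss of hormonal and autonomic control, and lungs of brain-dead donors are prone to inflammation and oedema. Sphingosine 1-phosphate is a lipid carried in plasma that acts on a family of G protein-coupled receptors. The receptor S1P1, the product of S1pr1, tightens the junctions between endothelial cells and governs the exit of lymphocytes from lymphoid organs, and SEW-2871 is a selective agonist of it. BD/SEW against sham measures brain death and the agonist together. BD/SEW against BD, also given here, differs by the agonist, and BD/SEW against SEW differs by brain death.

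The arrays carried lung RNA. The surfactant protein gene Sftpc was 14.57, 14.61 and 14.55 in the BD/SEW arrays, against 14.47, 14.50 and 14.32 in the sham arrays (log2 units), and the type 1 cell gene Ager was 13.11, 13.25 and 13.12 in the BD/SEW arrays, against 12.93, 12.97 and 12.44 in the sham arrays. They also carried unequal amounts of other tissues. The mean of 22 measured cardiac muscle genes was 6.00, 6.34 and 7.88 in the BD/SEW arrays, 6.13, 11.21 and 7.04 in the BD arrays and 5.83, 6.45 and 7.28 in the SEW arrays, against 10.22, 9.75 and 9.23 in the sham arrays. The mean of 17 adipose genes was 6.99, 6.89 and 7.48 in the BD/SEW arrays, against 9.25, 8.60 and 8.36 in the sham arrays. All sham arrays therefore held more heart and fat transcripts than any BD/SEW array, and a fit with the cardiac mean as a covariate is given beside the results below. Array medians lay between 7.34 and 7.41, and no 2 arrays held identical values. Array weights estimated by limma ran from 0.247 for sham replicate 3 to 2.64 for BD/SEW replicate 2. In bulk tissue, fewer cells of a type and less RNA per cell cannot be told apart.

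In the BD/SEW lungs 242 genes rose (1.7% of the genes tested) and 166 fell (1.17%) at an adjusted p under 0.05 in limma, with 3 arrays in each group (2.87% in either direction). Of these, 82 rose and 47 fell at least 2-fold. The 5 largest rises were those of Cxcl10, Mycn, Cxcl9, Tnfsf10 and Tnf, which are chemokines, a transcription factor and cytokines. The 5 largest falls were those of Bpifa1, Gp2, Thrsp, Ccl20 and Plin1, which include secreted products of epithelium and genes of fat; Gp2, Ccl20, Thrsp and Plin1 were each called in 0 of the 6 fits that leave out 1 compared array. Each group was apart from the other in all 408 called genes, against 25.9% of all genes tested, of which 1950 lay higher (13.7%) and 1735 lower (12.2%) in BD/SEW. Over all genes the median log2 fold change was 0.01, and 51.7% were higher in BD/SEW. At an unadjusted p under 0.05, 9.81% of all genes were higher and 7.74% lower. Counts at that level in the lists below are to be read beside these shares. Counts of list members called are to be read beside the 1.7% of all genes that rose and the 1.17% that fell.

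**Figure D1:**
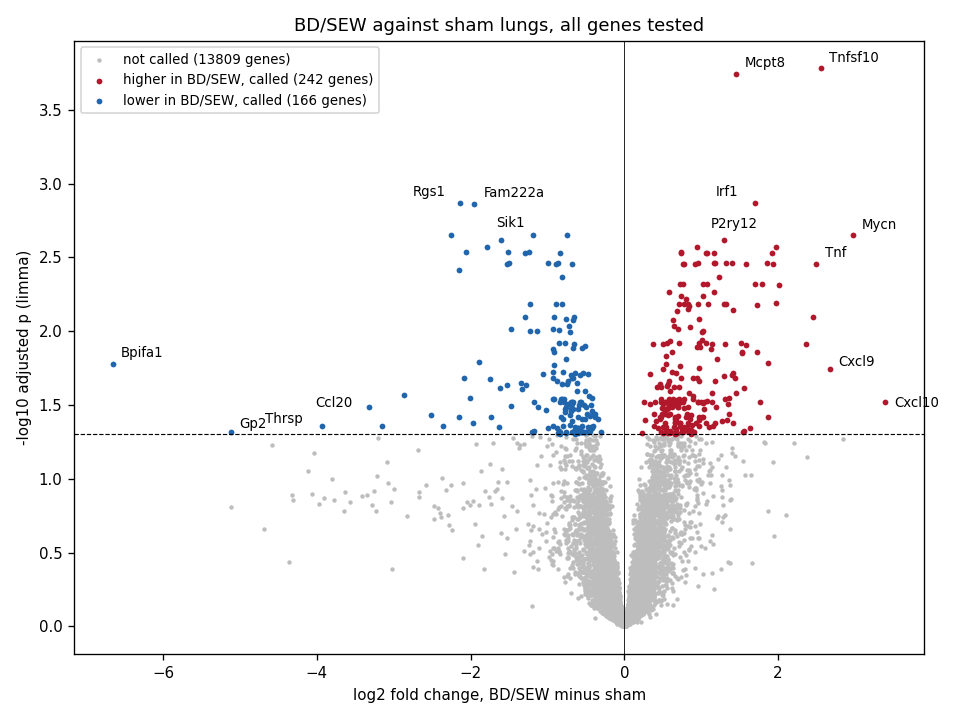
Each point is 1 of the 14217 genes, with the log2 fold change (BD/SEW minus sham) on the horizontal axis and -log10 of the adjusted p on the vertical axis; the dashed line marks an adjusted p of 0.05. The 242 genes that rose are red and the 166 that fell are blue, with Tnfsf10 and Mcpt8 at the top and Bpifa1 farthest to the left.

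How firmly these calls stood depended on single arrays. With each of the 6 compared arrays left out in turn, 91 (without BD/SEW replicate 2) to 322 (without sham replicate 3) genes were called. Of the 408 genes, 86 were called in all 6 of these fits (56 that rose and 30 that fell) and 102 in none. Every called gene kept its sign in them, which follows by construction, since the groups do not overlap in any of the 408 genes. The fit with the cardiac mean as a covariate called 7 genes that rose and 6 that fell. Those that rose were Tnfsf10, Mcpt8, Mycn, Irf1, Ccl4, Ccrl2 and Lap3, and those that fell were Rgs1, Sik1, Fam222a, Fam110c, Wbp1l and LOC102554570. The cardiac mean of every sham array exceeds that of every BD/SEW array, so the covariate overlaps with the group difference. Fewer calls in that fit follow in part by construction, and why the other genes lost their call was not tested. Below, "6 of 6 fits" means that a gene was called whichever compared array was left out, and ± after a log2 change is its standard error.

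**Figure D2:**
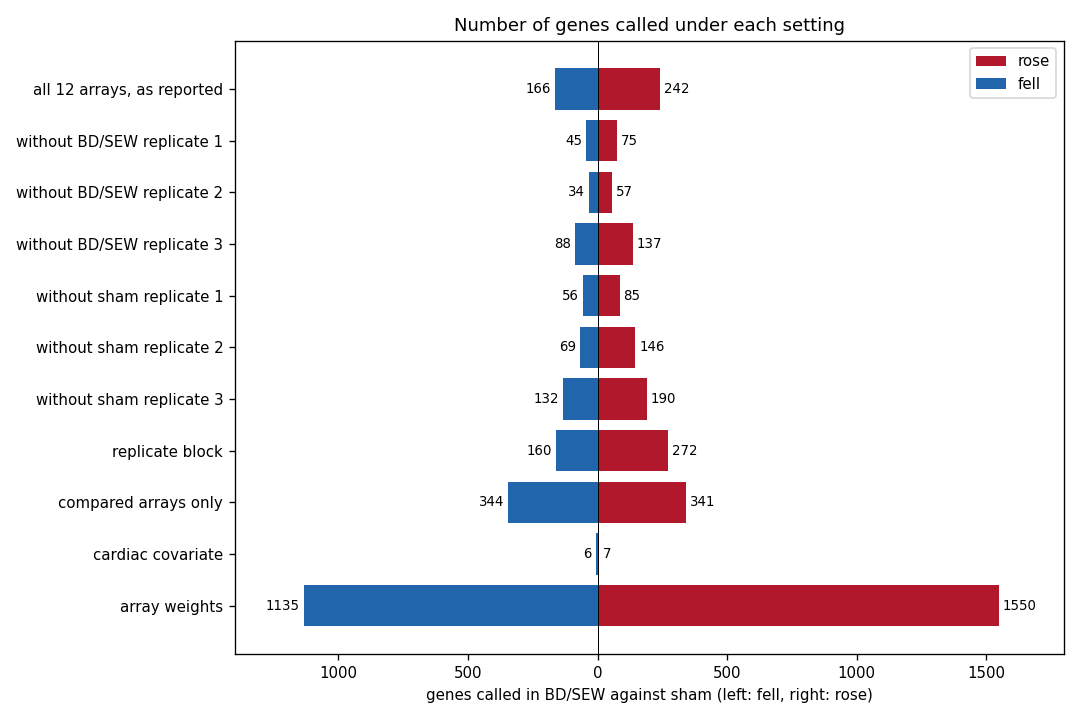
Bars give the number of genes called in BD/SEW against sham under each setting, with rises to the right in red and falls to the left in blue. The reported fit called 242 and 166; leaving out 1 array gave 57 to 190 rises and 34 to 132 falls, and the cardiac covariate left 7 and 6.

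The agonist's own receptor gene did not pass the test. S1pr1 was 13.37, 13.32 and 13.30 in the BD/SEW arrays, against 13.37, 13.35 and 13.29 in the sham arrays. The difference was -0.01 ± 0.07 (adjusted p = 0.974), and the groups overlapped. These values are of its brightest probe set, and with the mean over its probe sets the difference turned positive, as given below. S1pr2, whose product couples to RhoA and opposes S1P1 in endothelial cells, was 8.72, 9.07 and 8.87 in the BD/SEW arrays, against 7.55, 7.81 and 8.08 in the sham arrays. Every BD/SEW array was higher than every sham array, and S1pr2 rose by 1.07 ± 0.15 (adjusted p = 0.00481; 6 of 6 fits). The group means of S1pr2 were 8.89 ± 0.18 in BD/SEW, 8.31 ± 0.19 in BD and 7.72 ± 0.09 in SEW, against 7.81 ± 0.27 in sham (SD, n = 3). It was the member called among 14 measured genes of sphingosine 1-phosphate signalling. The kinase gene Sphk1, which makes the lipid, differed by -1.19 ± 0.41 (adjusted p = 0.15), and the endothelial exporter gene Spns2 differed by 0.84 ± 0.21 (adjusted p = 0.06).

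Among ligands and regulators of death-receptor signalling, 5 of 18 measured genes rose, where 1.7% of all genes rose. Of the list 13 were not called and 0 fell, and 0 had an unadjusted p under 0.05 in the lower direction. The median over the list was 0.42 against 0.01 over all genes. Tnfsf10, which encodes the death ligand TRAIL, was 10.87, 11.25 and 10.89 in the BD/SEW arrays, against 8.44, 8.56 and 8.34 in the sham arrays. The 3 arrays of each group lay close together and the groups were far apart, and Tnfsf10 rose by 2.56 ± 0.18, or 5.88-fold (adjusted p = 0.000166; 6 of 6 fits). Tnf, the gene of the inflammatory cytokine, was 10.03, 10.45 and 10.55 in the BD/SEW arrays, against 8.16, 7.72 and 7.65 in the sham arrays. It rose by 2.50 ± 0.34 (adjusted p = 0.00348; 6 of 6 fits) with no overlap between the groups. Another Tnf probe set, with a mean of 7.15, differed by 1.21 (adjusted p = 0.00436 over every probe set). Bcl2a1, which encodes a Bcl-2 relative that protects leukocytes from death, rose by 1.79 ± 0.25 (adjusted p = 0.00479; 6 of 6 fits). Fas, the gene of a death receptor, rose by 1.31 ± 0.22 (adjusted p = 0.0123), a call lost without BD/SEW replicate 1 or 2 (adjusted p up to 0.0645). Other Fas probe sets, with means of 6.49 and 5.14, differed by 0.74 and 0.22 (adjusted p = 0.0672 and 0.317 over every probe set). Cflar, whose product restrains caspase-8, rose by 1.44 ± 0.27 (adjusted p = 0.0206), a call lost without BD/SEW replicate 1 or 2 or sham replicate 1 (adjusted p up to 0.0993). Another Cflar probe set, with a mean of 9.76, differed by 0.15 (adjusted p = 0.767 over every probe set).

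Genes of NF-kappa-B signalling, the main pathway downstream of the TNF receptors, lay mostly higher, but few passed. Of 16 measured, 2 rose and 14 were higher in BD/SEW, with a median of 0.43. Ripk2, the kinase that links NOD receptors to NF-kappa-B, was 10.90, 10.44 and 10.30 in the BD/SEW arrays, against 8.86, 8.57 and 8.29 in the sham arrays. All BD/SEW arrays were above all sham arrays, and Ripk2 rose by 1.97 ± 0.29 (adjusted p = 0.00644; 6 of 6 fits). Nfkb2, which encodes the p100 subunit, rose by 0.80 ± 0.18 (adjusted p = 0.0382; 0 of 6 fits). The inhibitor genes Nfkbia and Tnfaip3 differed by 0.19 ± 0.09 (adjusted p = 0.339) and 0.50 ± 0.23 (adjusted p = 0.279), and neither passed. Named after their values were seen, 2 further genes of the pathway passed. Cd40, a receptor of the TNF receptor family, was 10.30, 10.22 and 10.11 in the BD/SEW arrays, against 8.72, 9.12 and 9.28 in the sham arrays and rose by 1.17 ± 0.14 (adjusted p = 0.00294; 6 of 6 fits). Nfkbid, which encodes a nuclear inhibitor protein of the family, rose by 1.02 ± 0.17 (adjusted p = 0.01), a call lost without BD/SEW replicate 2 (adjusted p up to 0.0623).

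**Figure D3:**
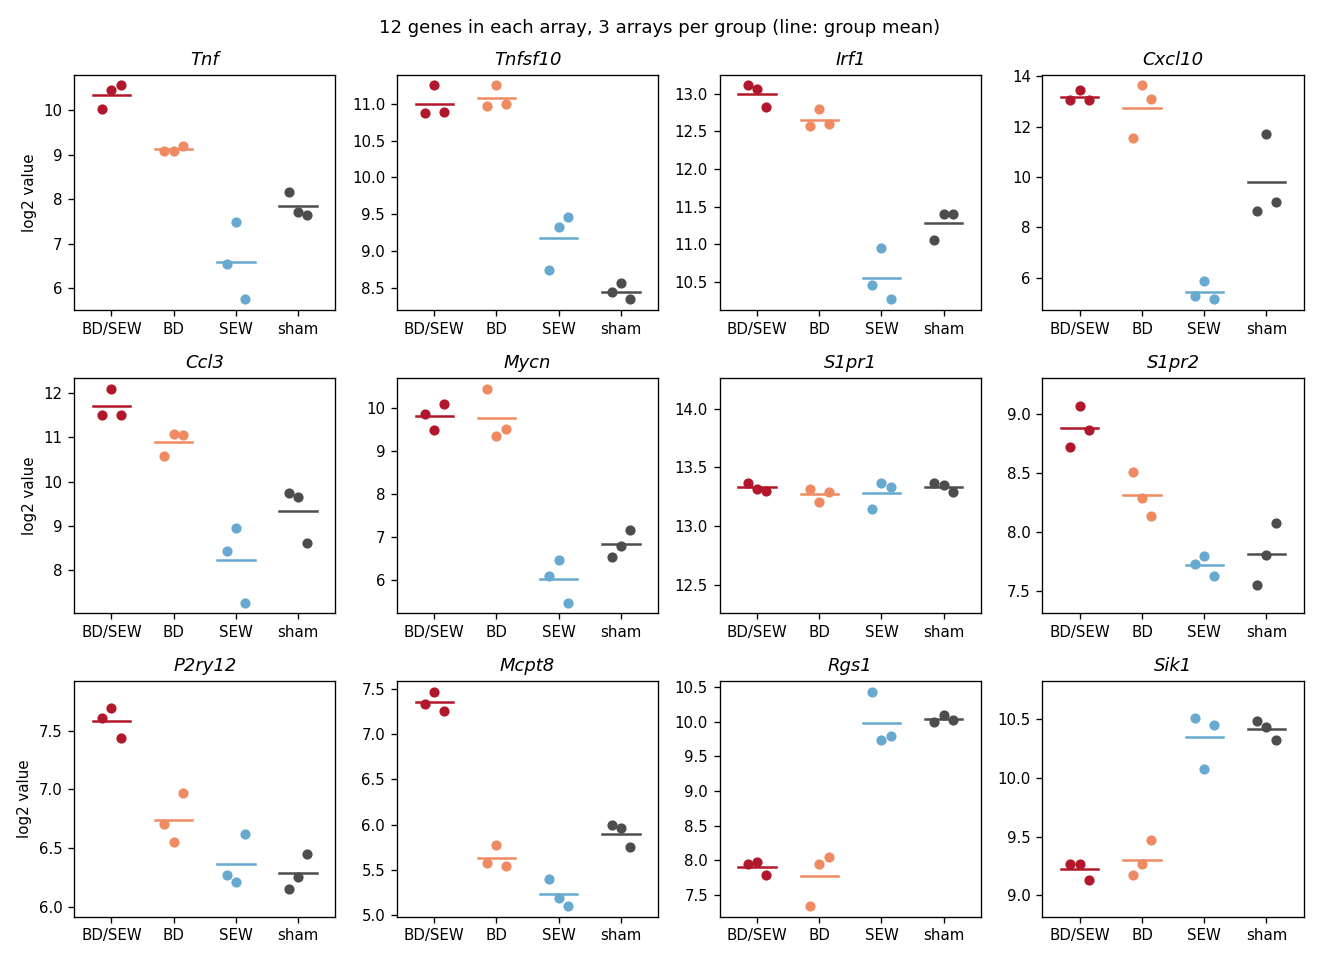
Points are the log2 values of 12 genes in each array, with BD/SEW, BD, SEW and sham from left to right, and lines are group means (n = 3). In Tnf, Tnfsf10, Irf1, Ccl3, Mycn, S1pr2, P2ry12 and Mcpt8 every BD/SEW point is above every sham point, in Rgs1 and Sik1 every BD/SEW point is below, in Cxcl10 sham replicate 2 approaches the BD/SEW arrays, and in S1pr1 all groups share a narrow band.

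Chemokines that draw monocytes and T cells were among the largest rises. Of 15 measured CC chemokines and receptors 3 rose and 1 fell, and of 17 CXC chemokines and receptors 2 rose and 0 fell (1 of 17 was lower at an unadjusted p under 0.05). Ccl3, a chemokine that activated macrophages make, was 11.51, 12.10 and 11.50 in the BD/SEW arrays, against 9.75, 9.65 and 8.62 in the sham arrays. It rose by 2.36 ± 0.40 (adjusted p = 0.0121) with no overlap, a call lost without BD/SEW replicate 2 (adjusted p up to 0.0734). Ccl4, a related chemokine, was 8.66, 9.62 and 9.42 in the BD/SEW arrays, against 6.61, 7.20 and 6.52 in the sham arrays. It rose by 2.46 ± 0.39 (adjusted p = 0.00803), a call lost without BD/SEW replicate 2 (adjusted p up to 0.0502). Ccl6, a chemokine of myeloid cells in rodents, rose by 0.96 ± 0.14 (adjusted p = 0.00655; 6 of 6 fits). Ccl2, the main monocyte attractant, was 12.33, 11.44 and 10.44 in the BD/SEW arrays, against 7.32, 8.32 and 10.01 in the sham arrays. Its difference of 2.85 ± 0.70 did not pass (adjusted p = 0.0541). Ccl20, which epithelium makes and which attracts CCR6 cells, was 7.62, 6.96 and 7.27 in the BD/SEW arrays, against 10.61, 10.49 and 10.73 in the sham arrays. It fell by 3.33 ± 0.71 (adjusted p = 0.0328; 0 of 6 fits). With the cardiac mean as a covariate its difference was -1.53 (adjusted p = 0.359), and among the BD arrays it was 6.80, 10.44 and 7.52, highest in BD replicate 2, which also had the highest cardiac mean. Ccrl2, an atypical receptor that binds chemerin and is in no list, rose by 1.97 ± 0.23 (adjusted p = 0.00271; 6 of 6 fits).

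Of the 3 CXC ligands of the receptor CXCR3, which interferon-gamma induces, 2 rose, with scatter among the sham arrays. Cxcl10 was 13.05, 13.45 and 13.06 in the BD/SEW arrays, against 8.64, 11.71 and 9.01 in the sham arrays. The BD/SEW arrays were alike, whereas sham replicate 2 lay far above the other sham arrays. Cxcl10 rose by 3.40 ± 0.70, or 10.6-fold (adjusted p = 0.0301), a call that held in 1 of the 6 fits, that without sham replicate 2 (adjusted p up to 0.125 in the others). Cxcl9 was 9.40, 9.67 and 8.66 in the BD/SEW arrays, against 6.07, 7.46 and 6.16 in the sham arrays, with sham replicate 2 again the highest sham array. It rose by 2.68 ± 0.49 (adjusted p = 0.018), a call lost without BD/SEW replicate 1 or 2 or sham replicate 1 or 3 (adjusted p up to 0.0924). The third ligand, Cxcl11, was 11.04, 11.77 and 11.64 in the BD/SEW arrays, against 8.73, 10.30 and 9.79 in the sham arrays, and its difference of 1.88 ± 0.67 did not pass (adjusted p = 0.164).

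Interferon-response genes were higher almost throughout the list, and how many passed varied with the fit. Of 33 measured genes 31 were higher in BD/SEW and 2 lower, with a median of 1.11, and 4 rose: Irf1, Gbp4, Igtp and Cxcl10, which the CXC list also holds. The mean of the list was 10.80, 11.05 and 10.95 in the BD/SEW arrays, against 9.32, 10.68 and 9.56 in the sham arrays. Without sham replicate 2, the highest of the sham arrays, 18 of 33 rose, whereas 1 rose when any other compared array was left out. The fit without sham replicate 2 called 215 of all 14217 genes. With every array kept but weighted, 18 rose, in a fit that called 2685 genes. With the cardiac covariate 1 rose, in a fit that called 13. With a term for the replicate number added (the replicate block) 17 rose, in a fit that called 432. Irf1, the transcription factor at the head of the interferon-gamma response, did not depend on sham replicate 2. It was 13.11, 13.06 and 12.82 in the BD/SEW arrays, against 11.06, 11.40 and 11.41 in the sham arrays, with all BD/SEW arrays above all sham arrays, and rose by 1.71 ± 0.17 (adjusted p = 0.00135; 6 of 6 fits). Gbp4, an interferon-induced GTPase gene, was 9.02, 9.91 and 9.68 in the BD/SEW arrays, against 6.98, 8.86 and 7.16 in the sham arrays and rose by 1.87 ± 0.41 (adjusted p = 0.0381), a call lost without BD/SEW replicate 1, 2 or 3 or sham replicate 1 or 3 (adjusted p up to 0.162). Igtp, another such GTPase gene, was 10.99, 11.40 and 10.97 in the BD/SEW arrays, against 8.85, 10.42 and 8.80 in the sham arrays and rose by 1.76 ± 0.37 (adjusted p = 0.0302), a call lost without BD/SEW replicate 1, 2 or 3 or sham replicate 1 or 3 (adjusted p up to 0.131). The antiviral gene Rsad2 differed by 2.38 ± 0.63 and missed the threshold (adjusted p = 0.071). Of 19 antigen presentation genes, 18 were higher and 2 rose, both immunoproteasome subunits: Psmb8 by 0.91 ± 0.22 (adjusted p = 0.0483) and Psmb9 by 0.67 ± 0.16 (adjusted p = 0.0479). Without sham replicate 2, 3 of the 19 rose, and 0 did so without any other compared array.

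The promoters of 4 of the genes that rose are shown because matches to motifs of the factors named above were found in them. The windows run from 250 bases before to 50 after the start (RefSeq, GRCr8), and capitals mark matches, on either strand, to a kappa-B motif, to the interferon-stimulated element (TTTC, any 2 bases, TTTC) and to the STAT element TTCNNNGAA.
Cxcl10 (chr14:15988816-15989115, plus strand): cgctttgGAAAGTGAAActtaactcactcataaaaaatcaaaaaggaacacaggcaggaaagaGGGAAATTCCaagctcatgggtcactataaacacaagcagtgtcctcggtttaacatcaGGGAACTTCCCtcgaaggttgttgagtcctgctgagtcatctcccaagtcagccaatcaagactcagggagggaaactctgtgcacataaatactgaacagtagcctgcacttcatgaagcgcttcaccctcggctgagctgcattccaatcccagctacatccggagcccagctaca
Irf1 (chr10:38417685-38417984, plus strand): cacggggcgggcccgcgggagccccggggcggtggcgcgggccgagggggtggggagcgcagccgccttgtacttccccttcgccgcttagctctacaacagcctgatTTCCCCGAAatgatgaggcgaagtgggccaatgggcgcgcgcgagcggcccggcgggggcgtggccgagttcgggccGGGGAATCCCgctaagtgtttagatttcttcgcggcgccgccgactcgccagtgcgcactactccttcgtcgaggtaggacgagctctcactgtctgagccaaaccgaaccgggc
Igtp (chr10:42874797-42875096, plus strand): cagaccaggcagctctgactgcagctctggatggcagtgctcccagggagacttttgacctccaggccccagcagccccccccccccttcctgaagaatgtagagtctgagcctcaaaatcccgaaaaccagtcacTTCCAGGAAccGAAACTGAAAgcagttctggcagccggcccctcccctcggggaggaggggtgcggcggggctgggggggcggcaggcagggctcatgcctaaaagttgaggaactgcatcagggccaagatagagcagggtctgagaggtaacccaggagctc
Nfkb2 (chr1:255108124-255108423, plus strand): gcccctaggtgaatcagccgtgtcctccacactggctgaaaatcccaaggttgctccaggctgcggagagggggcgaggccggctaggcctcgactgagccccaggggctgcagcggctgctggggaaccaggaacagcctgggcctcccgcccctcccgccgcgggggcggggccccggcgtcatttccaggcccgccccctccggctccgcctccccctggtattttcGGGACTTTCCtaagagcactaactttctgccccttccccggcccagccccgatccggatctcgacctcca

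In Cxcl10 kappa-B matches began 187, 128 and 127 bases before the start, the last 2 overlapping, and an interferon-stimulated element began 243 bases before it. Irf1 held a STAT element 142 bases and a kappa-B match 65 bases before its start. Igtp held a STAT element 114 bases and an interferon-stimulated element 103 bases before its start. Nfkb2 held a kappa-B match 20 bases before its start. Of the 11 called genes of the NF-kappa-B, interferon and chemokine lists, 8 matched a window, and kappa-B matches were in 4 of the 8, interferon-stimulated elements in 3 and STAT elements in 3. One of the 4 genes with a kappa-B match is Ccl20, which fell. The shares over 11702 windows of genes tested were 9.72% for kappa-B, 2.99% for the interferon-stimulated element and 6.99% for the STAT element. A match is a string of letters and not a shown binding site.

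A minority of cytokine and JAK-STAT genes passed. Of 28 interleukins, colony-stimulating factors and their receptors 3 rose and 0 fell (1 of 28 was lower at an unadjusted p under 0.05). These were Csf1 with a rise of 0.70 ± 0.15, Csf2 with 0.86 ± 0.21 and Il10 with 0.67 ± 0.15, and they were called in 1, 0 and 0 of the 6 fits. Il1b was 13.71, 13.75 and 13.54 in the BD/SEW arrays, against 11.97, 11.78 and 11.46 in the sham arrays. The groups were well apart, but the difference of 1.93 ± 0.53 did not pass (adjusted p = 0.0774). Il6 was 10.04, 9.57 and 8.57 in the BD/SEW arrays, against 8.23, 7.99 and 10.04 in the sham arrays. One sham array was as high as any BD/SEW array, and the difference was 0.64 ± 0.74 (adjusted p = 0.72). Of 21 genes of JAK-STAT signalling 4 rose and 1 fell. Il6r, the receptor of interleukin 6, was 10.46, 10.39 and 10.41 in the BD/SEW arrays, against 11.43, 11.15 and 11.11 in the sham arrays and fell by 0.81 ± 0.11 (adjusted p = 0.00432; 6 of 6 fits). Pim1, a kinase gene induced by STAT proteins, rose by 1.56 ± 0.30 (adjusted p = 0.0241), a call lost without BD/SEW replicate 1 or 2 or sham replicate 2 or 3 (adjusted p up to 0.101). Socs1, a feedback inhibitor of JAK kinases, rose by 1.34 ± 0.30 (adjusted p = 0.0397), a call lost without BD/SEW replicate 1 or 2 or sham replicate 1, 2 or 3 (adjusted p up to 0.165), and its other probe set, with a mean of 6.69, differed by 0.01 (adjusted p = 0.978). Cish, also a feedback inhibitor, rose by 0.85 ± 0.19 (adjusted p = 0.039), a call lost without BD/SEW replicate 1 or 2 or sham replicate 1 or 2 (adjusted p up to 0.148). Socs3 differed by 1.57 ± 0.45 (adjusted p = 0.0944). Of 18 innate sensing genes limma called 0, and 6 were higher at an unadjusted p under 0.05, against 9.81% of all genes.

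Genes of platelets were higher throughout. All 10 measured members of the platelet list were higher in BD/SEW, 7 rose, and the median was 1.35, against 1.7% of all genes that rose. The mean of the list was 9.38, 9.32 and 8.66 in the BD/SEW arrays, 8.14, 8.12 and 8.36 in the BD arrays and 7.83, 7.17 and 7.64 in the SEW arrays, against 7.53, 7.58 and 8.27 in the sham arrays. BD/SEW replicate 3 and sham replicate 3 lay closest to each other. P2ry12, the platelet ADP receptor that clopidogrel blocks, was 7.61, 7.69 and 7.44 in the BD/SEW arrays, against 6.15, 6.26 and 6.45 in the sham arrays. It rose by 1.29 ± 0.15 (adjusted p = 0.0024; 6 of 6 fits). Tubb1, the beta-tubulin of platelets, was 11.43, 11.45 and 10.95 in the BD/SEW arrays, against 9.07, 9.12 and 10.03 in the sham arrays and rose by 1.87 ± 0.34 (adjusted p = 0.0164), a call lost without BD/SEW replicate 1 or 2 or sham replicate 1 or 2 (adjusted p up to 0.0846). Pf4, a chemokine stored in platelet granules, was 11.32, 11.38 and 10.59 in the BD/SEW arrays, against 9.55, 9.48 and 10.04 in the sham arrays and rose by 1.41 ± 0.26 (adjusted p = 0.0198), a call lost without BD/SEW replicate 1 or 2 or sham replicate 1 or 2 (adjusted p up to 0.0996). Itga2b, the alpha subunit of the fibrinogen receptor, was 9.57, 9.61 and 8.93 in the BD/SEW arrays, against 7.61, 7.65 and 8.48 in the sham arrays and rose by 1.46 ± 0.29 (adjusted p = 0.0262), a call lost without BD/SEW replicate 1 or 2 or sham replicate 1 or 2 (adjusted p up to 0.122).

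The other called platelet genes were Gp5 and Gp9 of the von Willebrand factor receptor complex, with rises of 1.53 ± 0.27 and 0.86 ± 0.19, and Clec1b, the podoplanin receptor CLEC-2, with 1.64 ± 0.38. They were called in 3, 2 and 1 of the 6 fits. In number, 1 member rose without BD/SEW replicate 1, BD/SEW replicate 2 or sham replicate 1, 2 without sham replicate 2, 7 without BD/SEW replicate 3 and 9 without sham replicate 3. With the cardiac covariate 0 of the 10 passed, and the median of the list was 1.11, against 1.35 without it. Rgs18, a regulator of G protein signalling restricted largely to platelets and megakaryocytes, was 9.59, 9.33 and 8.60 in the BD/SEW arrays, against 7.44, 7.56 and 7.76 in the sham arrays and rose by 1.59 ± 0.21 (adjusted p = 0.00348; 6 of 6 fits). Genes of the lineage outside the lists, named after their values were seen, included Plek, a protein kinase C substrate of platelets and leukocytes, with a rise of 1.58 ± 0.27 (adjusted p = 0.0123), lost without BD/SEW replicate 1 or 2 (adjusted p up to 0.0591). Alox12, platelet 12-lipoxygenase, rose by 1.53 ± 0.27 (adjusted p = 0.0141), lost without BD/SEW replicate 1 or 2 or sham replicate 1 or 2 (adjusted p up to 0.0834). F13a1, the factor XIII A chain found in platelets and macrophages, rose by 1.14 ± 0.19 (adjusted p = 0.0123), lost without BD/SEW replicate 1 or 2 or sham replicate 1 (adjusted p up to 0.0757). In the erythroid list, which shares the circulation, all 5 measured members were higher, with a median of 0.25, but limma called 0, and 1 was higher at an unadjusted p under 0.05.

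**Figure D4:**
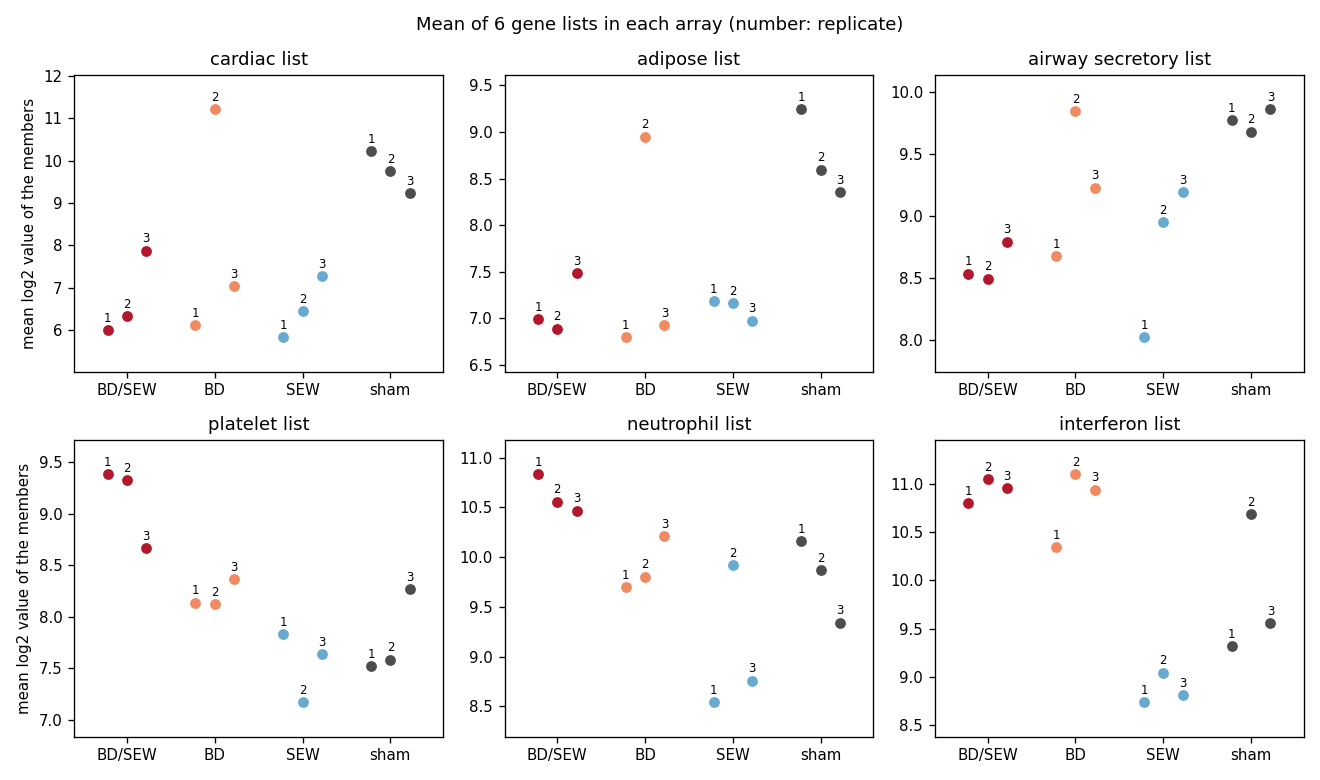
Points are the mean log2 value of a gene list in 1 array, numbered by replicate, with BD/SEW, BD, SEW and sham from left to right. The cardiac and adipose means are higher in all sham arrays than in any BD/SEW array, the platelet mean is higher in every BD/SEW array than in any sham array, and the interferon mean of sham replicate 2 (10.68) is close to the BD/SEW arrays.

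Among leukocyte genes, 2 mast cell proteases passed in 6 of 6 fits. Mcpt8, whose mouse counterpart marks basophils, was 7.34, 7.47 and 7.26 in the BD/SEW arrays, against 5.99, 5.96 and 5.75 in the sham arrays. All BD/SEW arrays lay above all sham arrays, and Mcpt8 rose by 1.46 ± 0.11 (adjusted p = 0.00018; 6 of 6 fits). Mcpt9, a related rat protease gene, rose by 0.74 ± 0.09 (adjusted p = 0.00289; 6 of 6 fits). Its levels of 5.44 ± 0.01 in BD/SEW and 4.69 ± 0.14 in sham (SD, n = 3) are both under the arrays' lower quartile (5.56 to 5.66), so the size of its rise is uncertain. They were the 2 called members among 15 genes of basophils and mast cells, whose median was -0.003, and family members of this kind can share probes. Neutrophil genes leaned higher: 12 of 13 were higher, with a median of 0.68, and 1 rose. This was Padi4, which citrullinates histones in neutrophils, with a rise of 1.52 ± 0.26 (adjusted p = 0.0121), lost without BD/SEW replicate 1 or 2 (adjusted p up to 0.0608). The list mean was 10.84, 10.56 and 10.47 in the BD/SEW arrays, against 10.16, 9.87 and 9.34 in the sham arrays. Limma called 0 of 17 macrophage genes, 0 of 18 genes of cytotoxic lymphocytes and 0 of 10 B cell genes, with 5, 3 and 1 higher and 1, 0 and 2 lower at an unadjusted p under 0.05. Of 17 T cell genes 1 fell, the interleukin 7 receptor gene Il7r, by 0.80 ± 0.18 (adjusted p = 0.0396), and it was called only without sham replicate 3.

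Adhesion molecules of the endothelium rose in part. Of 13 measured genes 12 were higher and 2 rose, with a median of 0.56. Icam1, the ligand of leukocyte beta-2 integrins that inflammation induces, was 13.48, 13.38 and 13.22 in the BD/SEW arrays, against 12.53, 12.62 and 12.08 in the sham arrays and rose by 0.95 ± 0.18 (adjusted p = 0.0206), a call lost without BD/SEW replicate 1 or 2 or sham replicate 1 (adjusted p up to 0.0916). Icam2, its constitutive relative on endothelium and platelets, was 12.00, 11.99 and 11.81 in the BD/SEW arrays, against 11.26, 11.12 and 10.95 in the sham arrays and rose by 0.82 ± 0.12 (adjusted p = 0.00659; 6 of 6 fits). The selectin gene Sele was 11.56, 11.04 and 10.45 in the BD/SEW arrays, against 9.46, 9.75 and 9.97 in the sham arrays. Its groups did not overlap, but the difference of 1.29 ± 0.48 did not pass (adjusted p = 0.181). Selp differed by 0.18 ± 0.47 (adjusted p = 0.884) and Vcam1 by 0.56 ± 0.15 (adjusted p = 0.071). Of 26 genes of endothelial identity 1 rose, the alveolar capillary gene Car4, by 0.73 ± 0.17 (adjusted p = 0.0417; 0 of 6 fits). Of 15 flow-responsive genes 1 rose, Klf6, by 0.58 ± 0.08 (adjusted p = 0.00545; 6 of 6 fits). Other Klf6 probe sets, with means of 11.56 and 10.28, differed by 0.28 and 0.51 (adjusted p = 0.238 and 0.351 over every probe set). The flow-induced factor Klf2 differed by -0.27 ± 0.19 (adjusted p = 0.519). Adm, which encodes the barrier-protective peptide adrenomedullin, was 9.90, 9.33 and 9.46 in the BD/SEW arrays, against 8.48, 8.54 and 8.64 in the sham arrays and rose by 1.01 ± 0.17 (adjusted p = 0.0101; 6 of 6 fits), as 1 of 22 angiogenic and vasoactive genes. Ramp3, which makes a receptor for that peptide together with another protein, is in no list and fell by 1.63 ± 0.38 (adjusted p = 0.0445), a call lost without BD/SEW replicate 1, 2 or 3 or sham replicate 1 or 2 (adjusted p up to 0.148). Of 21 coagulation genes 1 rose, F13a1, and 1 fell, the tissue factor gene F3, by 0.73 ± 0.14 (adjusted p = 0.0217), a call lost without BD/SEW replicate 1, 2 or 3 or sham replicate 1 (adjusted p up to 0.0775). Limma called 0 of 17 Notch genes, 0 of which had an unadjusted p under 0.05, and 0 of 12 nitric oxide and 0 of 20 prostanoid genes, of which 3 and 7 were higher and 1 and 1 lower at that level.

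Transcription factors and growth signals changed with no common direction. Mycn, a MYC family factor of development and proliferation, was 9.87, 9.48 and 10.09 in the BD/SEW arrays, against 6.55, 6.79 and 7.16 in the sham arrays. All BD/SEW arrays lay far above all sham arrays, and Mycn rose by 2.98 ± 0.32, or 7.89-fold (adjusted p = 0.00224; 6 of 6 fits). It was the member called among 12 MYC pathway genes, and limma called 0 of 29 cell cycle genes (1 higher and 1 lower at an unadjusted p under 0.05). Among 23 immediate early genes 3 rose and 1 fell. The stress factor gene Atf3 rose by 1.35 ± 0.28 and Ier3 by 1.36 ± 0.30, both called only without sham replicate 3 when 1 array was left out. The nuclear receptor gene Nr4a2 was 7.79, 7.73 and 7.94 in the BD/SEW arrays, against 8.77, 8.76 and 8.52 in the sham arrays and fell by 0.86 ± 0.11 (adjusted p = 0.00345; 6 of 6 fits). Of 20 genes of bone morphogenetic protein signalling 2 rose and 1 fell. The ligand gene Bmp6 rose by 0.97 ± 0.15 (adjusted p = 0.00829), lost without BD/SEW replicate 2 (adjusted p up to 0.0542). Other Bmp6 probe sets, with means of 9.63, 8.03 and 6.40, differed by 1.11, 0.37 and 0.08 (adjusted p = 0.0904, 0.233 and 0.741). The pathway's target Id1 fell by 0.85 ± 0.14 (adjusted p = 0.012), lost without BD/SEW replicate 2 (adjusted p up to 0.0606). Inhba, which encodes the subunit of activin A, is in no list and was 9.21, 9.05 and 9.14 in the BD/SEW arrays, against 7.07, 6.76 and 7.78 in the sham arrays. It rose by 1.93 ± 0.26 (adjusted p = 0.00348; 6 of 6 fits), and its other probe set, with a mean of 6.93, differed by 0.30 (adjusted p = 0.194).

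Some genes that respond to cyclic AMP and glucocorticoids fell. Of 19 cyclic AMP and catecholamine genes 16 were lower, 2 fell and 1 rose. Sik1, a kinase gene that CREB induces, was 9.27, 9.27 and 9.13 in the BD/SEW arrays, against 10.48, 10.43 and 10.32 in the sham arrays. The arrays of each group were nearly alike, and Sik1 fell by 1.19 ± 0.13 (adjusted p = 0.00224; 6 of 6 fits). Crem, which encodes a cyclic AMP response repressor, fell by 1.20 ± 0.28 (adjusted p = 0.0483), a call lost without BD/SEW replicate 2 or 3 or sham replicate 1, 2 or 3 (adjusted p up to 0.197). The beta-1 adrenergic receptor gene Adrb1 rose by 0.82 ± 0.19 (adjusted p = 0.0448; 0 of 6 fits). Of 20 glucocorticoid-responsive genes 5 fell (1.17% of all genes fell) and 1 rose. The pyruvate dehydrogenase kinase gene Pdk4 fell by 2.01 ± 0.41, the clock gene Per1 by 0.85 ± 0.20, Errfi1 by 0.92 ± 0.16, Cebpb by 0.80 ± 0.15 and the phosphatase gene Dusp1 by 0.44 ± 0.10, called in 1, 0, 3, 3 and 1 of the 6 fits. Another Dusp1 probe set, with a mean of 9.82, differed by -0.02 (adjusted p = 0.992). By array, the number that fell was 0 without BD/SEW replicate 2 or sham replicate 1, 1 without BD/SEW replicate 1 or 3, 2 without sham replicate 2 and 6 without sham replicate 3. Sgk1, the kinase that activates the epithelial sodium channel, went the other way and rose by 1.02 ± 0.17 (adjusted p = 0.0115), lost without BD/SEW replicate 2 (adjusted p up to 0.0667).

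Regulators of G protein and MAP kinase signalling were among the genes that fell in 6 of 6 fits. Rgs1, a regulator of chemokine receptor signalling, was 7.94, 7.97 and 7.78 in the BD/SEW arrays, against 10, 10.09 and 10.03 in the sham arrays. The groups were far apart, and Rgs1 fell by 2.14 ± 0.20, or 4.42-fold (adjusted p = 0.00135; 6 of 6 fits). Of 14 genes of its family 2 fell, Rgs1 and Rgs2, and 2 rose, Rgs18 and Rgs3. Rgs2 and Rgs3 were each called in 0 of the 6 fits. Other Rgs3 probe sets, with means of 7.21 and 7.12, differed by 0.36 and 0.23 (adjusted p = 0.566 and 0.751 over every probe set). Dusp9, a phosphatase gene of MAP kinases, fell by 2.16 ± 0.29 (adjusted p = 0.00384; 6 of 6 fits) to 5.12 ± 0.10 in BD/SEW, against 7.27 ± 0.51 in sham (SD, n = 3), where the BD/SEW level is under the arrays' lower quartile and the size of the fall is uncertain. Rasd1, a Ras relative induced by dexamethasone and in no list, was 8.38, 8.19 and 7.67 in the BD/SEW arrays, against 9.46, 9.40 and 9.82 in the sham arrays and fell by 1.48 ± 0.24 (adjusted p = 0.00961; 6 of 6 fits). Penk, the proenkephalin gene, was 8.19, 7.96 and 7.80 in the BD/SEW arrays, against 9.70, 9.84 and 9.75 in the sham arrays and fell by 1.78 ± 0.21 (adjusted p = 0.00271; 6 of 6 fits). The functionally less known Fam222a and Fam110c fell by 1.96 ± 0.19 and 2.26 ± 0.25, both in 6 of 6 fits, and the BD/SEW mean of Fam110c, 5.59 ± 0.51 (SD, n = 3), is at that low end. Amino acid and methyl metabolism had falls too, named after their values were seen: the glutamine transporter gene Slc38a2 was 11.16, 11.29 and 11.38 in the BD/SEW arrays, against 12.16, 12.05 and 12.13 in the sham arrays and fell by 0.84 ± 0.10 (adjusted p = 0.00294; 6 of 6 fits), and Mat2a, which makes S-adenosylmethionine, fell by 0.68 ± 0.09 (adjusted p = 0.00348; 6 of 6 fits).

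Few genes of metabolism, stress and matrix passed. Stard4, which carries cholesterol between membranes, was 9.03, 8.99 and 8.95 in the BD/SEW arrays, against 10.03, 10.07 and 10.74 in the sham arrays and fell by 1.29 ± 0.20 (adjusted p = 0.00803; 6 of 6 fits), as 1 of 20 cholesterol genes. Slc2a6, a lysosomal hexose transporter gene of inflamed macrophages, was 9.03, 8.97 and 8.99 in the BD/SEW arrays, against 7.40, 7.82 and 7.58 in the sham arrays and rose by 1.40 ± 0.18 (adjusted p = 0.00345; 6 of 6 fits). With the neuronal-type glucose transporter gene Slc2a3 it made up the 2 rises among 20 genes of glucose and fatty acid use, against 2 falls, Pdk4 and Txnip. Slc2a3, Pdk4 and Txnip were each called in 1 of the 6 fits. G0s2, an inhibitor of fat hydrolysis, is in no list and rose by 2.02 ± 0.29 (adjusted p = 0.00488; 6 of 6 fits). Of 31 matrix genes 3 fell and 0 rose (3 of 31 were higher at an unadjusted p under 0.05). The protease gene Adamts9 was 10.40, 10.07 and 10.04 in the BD/SEW arrays, against 11.48, 11.87 and 11.70 in the sham arrays and fell by 1.51 ± 0.18 (adjusted p = 0.00289; 6 of 6 fits). Another Adamts9 probe set, with a mean of 6.10, differed by -0.01 (adjusted p = 0.986 over every probe set). Limma called 0 of 22 hypoxia, 0 of 15 heat shock, 0 of 13 mRNA decay and 0 of 19 complement genes, with 5, 0, 3 and 4 at an unadjusted p under 0.05. Of the integrated stress response, 1 of 18 rose, Ppp1r15a, by 0.73 ± 0.16 (adjusted p = 0.0417), and of antioxidant genes 1 of 20, Gpx1, by 0.37 ± 0.06 (adjusted p = 0.0123). These were lost without BD/SEW replicate 1, 2 or 3 or sham replicate 1 or 2 (adjusted p up to 0.148) and without BD/SEW replicate 1 or 2 or sham replicate 1 (adjusted p up to 0.0665).

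**Figure D5:**
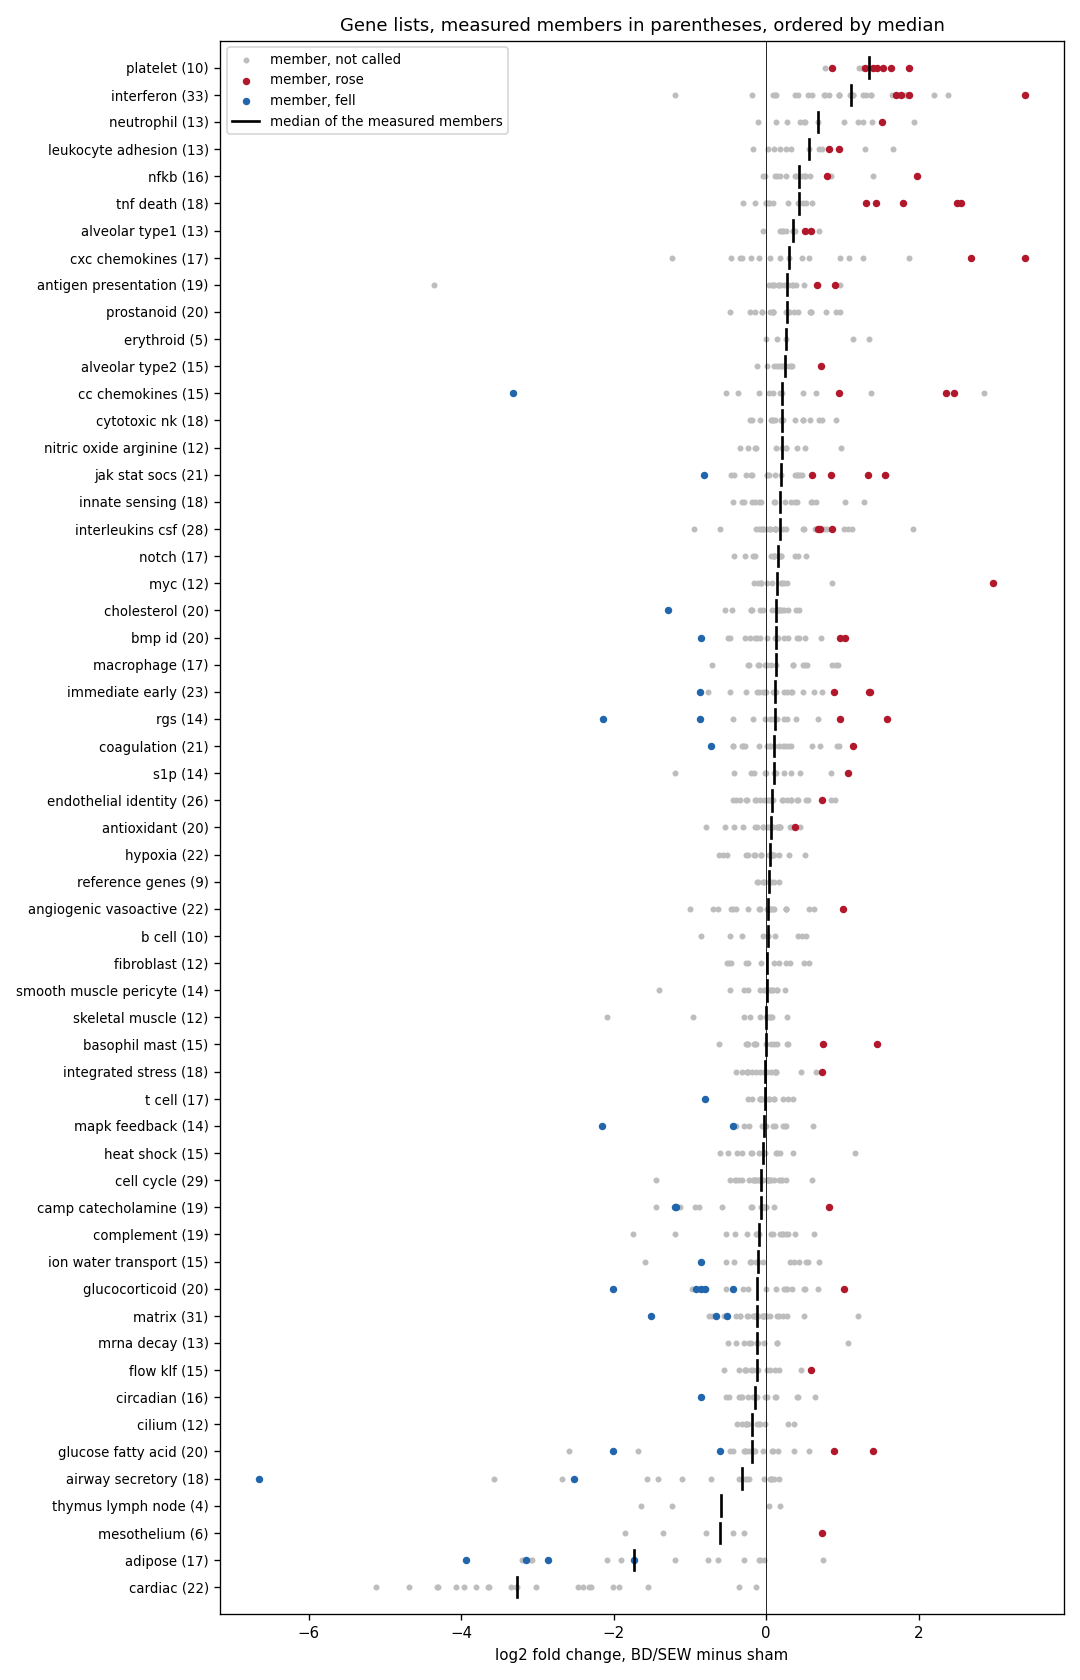
Each row is 1 of 57 gene lists with its number of measured members, each point a member's log2 fold change (BD/SEW minus sham), red where it rose, blue where it fell and grey where it was not called; black bars are list medians. The platelet list has the highest median (1.35) with 7 of 10 members red, the interferon list follows (1.11), and the cardiac list has the lowest (-3.27) with all members grey.

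Alveolar epithelial genes leaned higher and airway genes lower. Of 15 type 2 cell genes 14 were higher and 1 rose, the surfactant phospholipid enzyme gene Lpcat1, which was 11.91, 11.81 and 11.67 in the BD/SEW arrays, against 10.92, 11.18 and 11.13 in the sham arrays and rose by 0.72 ± 0.10 (adjusted p = 0.00481; 6 of 6 fits). Of 13 type 1 cell genes 12 were higher and 2 rose, Pdpn by 0.50 ± 0.09 (adjusted p = 0.0182) and Clic5 by 0.59 ± 0.12 (adjusted p = 0.0252), both called only without sham replicate 2 or 3 when 1 array was left out. The medians of the lists were 0.24 and 0.35. Krt19, a keratin gene of simple epithelium and mesothelium, rose by 0.73 ± 0.09 (adjusted p = 0.00296; 6 of 6 fits). Of 15 ion and water transport genes 1 fell, the water channel gene Aqp4, by 0.86 ± 0.20 (adjusted p = 0.0488). Without sham replicate 3, 3 members fell, and without any other compared array 0 fell.

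An airway gene had the largest fall among the called genes. Bpifa1, an abundant secreted protein of the upper airways, was 6.68, 6.81 and 8.43 in the BD/SEW arrays, against 14.29, 14 and 13.60 in the sham arrays. The groups were far apart, with BD/SEW replicate 3 the highest of its group, and Bpifa1 fell by 6.66 ± 1.20 (adjusted p = 0.0166), a call lost without BD/SEW replicate 1 or 2 or sham replicate 1 (adjusted p up to 0.0842). Muc5b, which encodes an airway mucin, was the other of 2 falls among 18 airway secretory genes, at -2.52 ± 0.55 (adjusted p = 0.0371; 0 of 6 fits). The club cell gene Scgb1a1 differed by 0.07 ± 0.09 (adjusted p = 0.748). The mean of the airway list was 8.53, 8.49 and 8.79 in the BD/SEW arrays, against 9.77, 9.68 and 9.86 in the sham arrays, so that every sham array was higher, as it was for cardiac and adipose genes. Limma called 0 of 12 cilium genes, 0 of which had an unadjusted p under 0.05. All 22 cardiac genes were lower, 0 were called and 18 had an unadjusted p under 0.05. Myh6, the atrial myosin heavy chain gene, was 5.43, 6.77 and 10.70 in the BD/SEW arrays, against 13.44, 12.75 and 12.08 in the sham arrays and differed by -5.12 ± 1.79 (adjusted p = 0.155). Of 17 adipose genes 4 fell, among them the lipid droplet gene Plin1 by 3.15 ± 0.72 and the lipogenic gene Thrsp by 3.93 ± 0.90, each in 0 of 6 fits, and the number was 0 without BD/SEW replicate 1, BD/SEW replicate 2, sham replicate 1 or sham replicate 2 and 1 without either of the others. With the cardiac mean as a covariate, the difference of Bpifa1 was -3.49 (adjusted p = 0.105), that of Plin1 -1.32 (adjusted p = 0.448) and that of Thrsp -1.49 (adjusted p = 0.349). In that fit the median of the adipose list was -0.32, against -1.74 without the covariate, and that of the cardiac list, from which the covariate is made, was -0.10, against -3.27.

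A group of genes chosen after their values were seen belongs to the Hippo pathway, which restrains the transcriptional coactivators YAP and TAZ. Amotl2, a junction protein gene that YAP induces, was 12.18, 11.84 and 12.04 in the BD/SEW arrays, against 10.68, 10.73 and 11.12 in the sham arrays. It rose by 1.18 ± 0.15 (adjusted p = 0.00345; 6 of 6 fits) with no overlap. Ajuba rose by 0.70 ± 0.11 (adjusted p = 0.00961), lost without BD/SEW replicate 2 (adjusted p up to 0.0545). Frmd6, Wwc1 and Sav1 rose by 0.64 ± 0.13, 0.67 ± 0.16 and 0.47 ± 0.09, and were called in 1, 1 and 2 of the 6 fits. Since they were picked for having passed, their number is not a result. Pdgfa, the gene of a platelet-derived growth factor chain that alveolar epithelium makes, rose by 0.85 ± 0.13 (adjusted p = 0.00672; 6 of 6 fits). Among regulators of development that fell were the corepressor gene Tle1, by 1.5 ± 0.20 (adjusted p = 0.00345; 6 of 6 fits), and the lung patterning gene Hoxa5, by 0.93 ± 0.18 (adjusted p = 0.0207), lost without BD/SEW replicate 1 or 2 or sham replicate 1 (adjusted p up to 0.102).

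Set against brain death without the agonist, the BD/SEW lungs differed in few genes. In BD/SEW against BD 2 genes rose (0.0141% of 14217) and 0 fell in limma. At an unadjusted p under 0.05, 530 were higher (3.73% of all genes) and 243 lower (1.71%). The groups did not overlap in 1770 genes (12.4%), where 10% is expected of 3 arrays against 3 that do not differ. Both called genes were mast cell proteases. Neither was tested in a fit without the genes whose mean lay under the 25th percentile of genes, and that fit called 0 genes. Mcpt8 was 7.34, 7.47 and 7.26 in the BD/SEW arrays, against 5.58, 5.77 and 5.54 in the BD arrays, and rose by 1.73 ± 0.11 (adjusted p = 5.66e-05). Its BD values lie near the arrays' lower quartile (5.56 to 5.66), so the size of the rise is uncertain. Mcpt9 was 5.43, 5.44 and 5.44 in BD/SEW, against 4.70, 4.50 and 4.65 in BD, and rose by 0.82 ± 0.09 (adjusted p = 0.00931), with both levels under the arrays' lower quartile. Next by p was Slc2a6, at 1.15 ± 0.18 (adjusted p = 0.223). For the genes described above, Tnf differed between BD/SEW and BD by 1.22 ± 0.34 (adjusted p = 0.698), P2ry12 by 0.84 ± 0.15 (adjusted p = 0.254), S1pr2 by 0.57 ± 0.15 (adjusted p = 0.698), Tnfsf10 by -0.07 ± 0.18 (adjusted p = 0.998) and Rgs1 by 0.12 ± 0.20 (adjusted p = 0.991). These values do not show that BD/SEW and BD lungs were alike.

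In BD against sham 30 genes rose (0.211%) and 54 fell (0.38%), and in SEW against sham 484 rose (3.4%) and 346 fell (2.43%). Both share the sham arrays with BD/SEW against sham, so only each comparison's own values are given side by side. Tnfsf10 rose by 2.56 ± 0.18 in BD/SEW against sham, by 2.63 ± 0.18 in BD against sham (adjusted p = 0.000124), and by 0.73 ± 0.18 in SEW against sham (adjusted p = 0.0399). Mycn rose by 2.98 ± 0.32 in BD/SEW, by 2.94 ± 0.32 in BD (adjusted p = 0.00371), and differed by -0.81 ± 0.32 in SEW (adjusted p = 0.138). Rgs1 fell by 2.14 ± 0.20 in BD/SEW, by 2.27 ± 0.20 in BD (adjusted p = 0.00125), and differed by -0.05 ± 0.20 in SEW (adjusted p = 0.896). Tnf rose by 2.50 ± 0.34 in BD/SEW and differed by 1.28 ± 0.34 in BD (adjusted p = 0.132) and by -1.25 ± 0.34 in SEW (adjusted p = 0.0528). Icam2 rose by 0.82 ± 0.12 in BD/SEW, differed by 0.57 ± 0.12 in BD (adjusted p = 0.0753), and rose by 0.89 ± 0.12 in SEW (adjusted p = 0.00444).

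Brain death with the agonist present, BD/SEW against SEW, gave 676 rises (4.75%) and 716 falls (5.04%). Cxcl10 averaged 13.19 ± 0.23 in BD/SEW, 12.75 ± 1.08 in BD and 5.43 ± 0.40 in SEW, against 9.79 ± 1.68 in sham (SD, n = 3). Sele averaged 11.02 ± 0.56 in BD/SEW, 10.65 ± 0.76 in BD and 5.03 ± 0.99 in SEW, against 9.73 ± 0.26 in sham, and it rose by 5.98 ± 0.48 in BD/SEW against SEW (adjusted p = 4.58e-05). The SEW means of Cxcl10 and Sele are under the arrays' lower quartile, so these sizes are uncertain. S1pr2 rose by 1.17 ± 0.15 in this comparison (adjusted p = 0.000864). The interaction, which is the brain-death difference with the agonist less that without it, was positive in 121 genes (0.851%) and negative in 14 (0.0985%). Where it is positive, BD/SEW minus sham exceeded the sum of BD minus sham and SEW minus sham. For Tnf the interaction was 2.47 ± 0.48 (adjusted p = 0.0393), for Mcpt8 2.40 ± 0.15 (adjusted p = 6.95e-05) and for Inhba 2.52 ± 0.37 (adjusted p = 0.0106). The SEW mean of Mcpt8 is also under the arrays' lower quartile, so the size of its interaction is uncertain. For Cd40 the interaction was 1.52 ± 0.20 (adjusted p = 0.00773). For Klf2, which averaged 10.71 ± 0.20 in BD/SEW, 10.85 ± 0.20 in BD and 12.46 ± 0.26 in SEW, against 10.98 ± 0.36 in sham, it was -1.61 ± 0.27 (adjusted p = 0.0206). For Tnfsf10 it was -0.80 ± 0.25 (adjusted p = 0.213) and for Rgs1 0.18 ± 0.29 (adjusted p = 0.848).

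Of the 408 called genes 127 have other probe sets, and those of only some genes are given above. Of the 174 other probe sets 157 moved the same way, 25 of them with an adjusted p under 0.05 in a fit of every probe set, and 17 moved the opposite way, 0 of them with such a p. Of the 111 other probe sets whose mean exceeded the 25th percentile of genes, 104 moved the same way.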

How the data were processed

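Rat lung RNA was hybridised to 12 Affymetrix rat arrays, 3 in each of 4 groups (6 ug of total RNA per array, per the labels' protocols). The deposited values are on the log2 scale, 1 per probe set and array, and were used as deposited. Per the submitters' processing notes, RMA, MAS5 and the affy package were used, and their order and versions are not given in the sources used here. Probe sets were named from the platform annotation: of 31042, 20826 carry 1 symbol, 436 several and 9780 are unnamed here, and 20760 matched RefSeq (GRCr8). Of 14217 genes 4525 had several probe sets, and each gene was represented by its brightest one, by the mean of the 12 arrays. Limma 3.58.1 in R 4.3.3 was fitted over all 12 arrays with 1 mean per group and a mean trend in the variance, with two-sided tests and Benjamini-Hochberg adjustment over all 14217 genes, and the threshold for a call was an adjusted p of 0.05. The code was tested on simulated data. The number of arrays limits the precision.

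Most genes named were drawn from 200 genes picked by a rule, and part of those 200 are not named above. The rule took the top 20 called genes in each direction by fold change. Only genes whose groups do not overlap and whose higher mean exceeds the 25th percentile of genes (6.55) entered that ranking. It also took up to 4 called members of each list by smallest p, the first 2 members of each list and S1pr1. The called genes and the 3 smallest p in BD/SEW against BD, and 5 of each sign by interaction, completed it. Other genes named, among them the uncalled members of lists and those found in no list, were chosen after their values were seen. The 57 gene lists, of which 937 distinct genes were measured, and the comparison itself were chosen with earlier results of these data known. Alternatives were the replicate block, the compared arrays only, array weights, no trend, another choice of probe set, dim genes left out, other scalings, a cardiac covariate, other thresholds and each array left out.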

Additional observations from a re-analysis of the deposited data

Results flagged for a closer look

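For 22 of the genes named above the brain-death difference with SEW-2871 (BD/SEW minus SEW) and that without it (BD minus sham) differed in limma's interaction test at an adjusted p under 0.05, where the first less the second is given in log2 units. Among adhesion molecules it was 5.06 for Sele, 3.6 for Selp and 1.43 for Vcam1. Among cytokines, chemokines and their receptors it was 5.35 for Il6, 4.79 for Cxcl10, 5.64 for Cxcl11, 2.47 for Tnf, 2.52 for Inhba, 1.95 for Ccrl2 and 1.52 for Cd40. Among regulators of NF-kappa-B, cell death and JAK-STAT signalling it was 2.93 for Tnfaip3, 1.87 for Nfkb2, 2.09 for Cflar and 1.65 for Cish. The proteases Mcpt8 and Mcpt9 had 2.4 and 0.93, the hexose transporter genes Slc2a3 and Slc2a6 had 2.45 and 1.71, and Cebpb and Fam110c had 1.04 and 1.78. It was negative for Klf2 (-1.61) and Hoxa5 (-1.31). The interaction uses all 4 groups, and the genes were named for other results of the same arrays. Sele, Cxcl10, Cxcl11, Il6 and Mcpt8 averaged under the arrays' lower quartile in SEW, and Mcpt9 did so in all 4 groups. The BD/SEW mean of Fam110c lies at that low end. The sizes for these genes are therefore uncertain.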

How the results depend on the processing

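In BD/SEW against sham the 408 called genes kept their sign under the alternatives fitted per gene. With array weights, the compared arrays only or 1 array left out this follows by construction, since their groups do not overlap. Of the called genes, 357 were tested with dim genes left out and all 408 under the others. Their number was 432 with the replicate block, 2685 with array weights, 685 with the compared arrays only, 705 without the arrays of lowest weight (sham replicate 3 and SEW replicate 2, chosen after seeing the data), 13 with the cardiac covariate and 89 at an adjusted p under 0.01, and 91 to 322 with 1 array left out. The same-numbered BD/SEW and sham arrays correlated by 0.050, 0.180 and 0.167 in their deviations from the group means. Pairs of unlike number correlated by -0.208 to 0.081. The reported fit did not pair the arrays by number, and whether same-numbered arrays belong together was not tested. With the block, 353 of the 408 genes were also called, and 17 of 33 interferon genes rose, against 4. BD/SEW against BD gave 8 genes with its own arrays, 5 with weights, 0 with dim genes left out, 5 without the arrays of lowest weight and 1 to 5 with 1 array left out. BD against sham gave 51 over every probe set, 383 with array weights, 13 with only its own arrays, 29 with the cardiac covariate, 169 without the arrays of lowest weight, 22 at 0.01 and 26 to 227 with 1 array left out. SEW against sham gave 257 with its own arrays, 1556 with weights, 24 with the cardiac covariate, 449 without the arrays of lowest weight, 109 at 0.01, 512 at 1.5-fold or more and 321 to 554 with 1 array left out. BD/SEW against SEW gave 2506 with weights, 629 at 0.01, 914 at 1.5-fold or more and 790 to 1360 with 1 array left out. The interaction of BD and SEW gave 464 with weights, 82 over every probe set, 80 with the cardiac covariate, 288 without the arrays of lowest weight, 24 at 0.01 and 38 to 235 with 1 array left out. Fewer arrays lower these counts by construction in part. So does a covariate that separates the compared groups, as the cardiac mean separates BD/SEW from sham. The cause of the other shifts was not tested. BD/SEW minus sham turned sign for S1pr1 with the mean over probe sets (0.105), and it ranged from -0.03 (without sham replicate 3) to 0.01 (without sham replicate 1) with 1 array left out. For Selp it turned sign with the cardiac covariate (-0.306) and ranged from -0.008 (without BD/SEW replicate 1) to 0.507 (without BD/SEW replicate 3). For Mx2 it turned sign with the mean over probe sets (0.057) and ranged from -2.362 (without BD/SEW replicate 3) to 1.113 (without BD/SEW replicate 2). Values below the lower quartile of the arrays are limited by signal over background.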

Other observations

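Single arrays stood far from the rest of their group in 2 genes, chosen after their values were seen. Mx2, an interferon-induced GTPase gene, was 12.18, 5.27 and 12.22 in the BD/SEW arrays, against 10.74, 11.99 and 10.53 in the sham arrays. RT1-Bb, a class II histocompatibility gene, was 5.72, 5.86 and 12.63 in the BD/SEW arrays, against 12.43, 12.70 and 12.17 in the sham arrays, and was 5.90, 5.76 and 12.66 in the BD arrays and 12.53, 12.22 and 5.75 in the SEW arrays. Its values thus took 2 levels, and both levels occurred in the BD/SEW, BD and SEW groups.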
